A study of Mus musculus with 16 samples.

Results

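Aminoacyl tRNA synthetases are the enzymes that load each tRNA with its amino acid, so that the ribosome can read the code. Their 37 genes were followed here in CD4 T cells from spleens of mice with and without a transplanted B cell lymphoma. The genes were taken by symbol from a table of 23479 genes: a single amino acid letter followed by ars or ars2, together with Eprs, Farsa, Farsb and Pars2. This gave 20 genes without the ending 2, called cytosolic below, and 17 with it, called mitochondrial. All 37 had enough reads to be tested, with 16 reads for the least read gene in a library (Pars2, the mitochondrial prolyl enzyme) and 7340 for the most read (Eprs, the joint glutamyl and prolyl enzyme).

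All mice were C57BL/6. Eµ-Myc lymphoma cells, which come from a mouse model that drives the Myc oncogene in B cells by an immunoglobulin heavy chain enhancer, were transplanted, and spleens were taken at day 7 (7 libraries) or day 14 (4 libraries). The control group, 5 libraries labelled Day 0, came from mice without tumour. Within each group the T cells were enriched by magnetic removal of other cells, not by a positive sort. The age of the mice, the number of cells transplanted and whether they came from 1 tumour are not given in the sources used here.

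Cytosolic and mitochondrial protein synthesis use largely separate sets of synthetases, all of them encoded in the nucleus. Glycyl and lysyl enzymes for both places come from a single gene each, Gars and Kars, which stand among the 20 cytosolic genes here, and no gene for a mitochondrial glutaminyl enzyme exists, since that tRNA is loaded with glutamate and then amidated. Several cytosolic enzymes (encoded by Dars, Eprs, Iars, Kars, Lars, Mars, Qars and Rars) assemble with 3 scaffold proteins into the multisynthetase complex. When T cells are activated and begin to grow they raise protein synthesis, and when amino acids are short the factor ATF4 is known to raise many cytosolic synthetase genes.

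Promoters of the RefSeq table (GRCm38.p6, 250 bases before to 50 bases from each start) were matched for 27 of the 37 genes, 13 cytosolic and 14 mitochondrial, as 28 promoters. Those not matched included Cars, Hars, Hars2, Lars, Nars, Pars2, Rars, Vars and Wars. The core of the element bound by ATF4 together with C/EBP factors, TGATGNAA on either strand, was in 5 of 13 cytosolic promoters (38.5%), in 0 of 15 mitochondrial ones and in 3.97% of all 32851 promoters. The E-box CACGTG, which Myc and other factors of its class bind, was in 4 of 13 cytosolic promoters (30.8%: Aars, Farsb, Iars and Tars), in 1 of 15 mitochondrial ones (6.67%, that of Ears2) and in 7.15% of all. No match of one motif overlapped a match of the other in these promoters. The 5 cytosolic promoters with the ATF4 core are shown because the synthetase genes that hold it are set beside ATF4 targets below. Each runs from 150 bases before the start to 30 bases from it, 5′ to 3′ on the gene's strand, with both motifs in capitals. Their positions are chr8:111033692-111033871 (plus strand), chr6:55037851-55038030 (plus), chr13:49681980-49682159 (plus), chr15:11399629-11399808 (minus) and chr4:129189753-129189932 (plus).
Aars: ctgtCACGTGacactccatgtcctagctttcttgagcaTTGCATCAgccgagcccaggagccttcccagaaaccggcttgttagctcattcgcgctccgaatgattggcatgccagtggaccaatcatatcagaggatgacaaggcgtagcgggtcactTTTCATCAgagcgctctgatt
Gars: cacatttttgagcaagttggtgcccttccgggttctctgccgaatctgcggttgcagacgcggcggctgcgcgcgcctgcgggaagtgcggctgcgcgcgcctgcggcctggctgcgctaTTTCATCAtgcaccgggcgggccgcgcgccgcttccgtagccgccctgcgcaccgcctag
Iars: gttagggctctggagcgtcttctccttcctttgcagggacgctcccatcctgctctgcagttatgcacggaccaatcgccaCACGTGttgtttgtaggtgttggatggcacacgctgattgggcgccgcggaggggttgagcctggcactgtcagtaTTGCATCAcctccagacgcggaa
Tars: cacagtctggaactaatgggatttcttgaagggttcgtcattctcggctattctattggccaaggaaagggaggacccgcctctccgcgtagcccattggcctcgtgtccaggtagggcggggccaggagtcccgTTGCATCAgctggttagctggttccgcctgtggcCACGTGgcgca
Yars: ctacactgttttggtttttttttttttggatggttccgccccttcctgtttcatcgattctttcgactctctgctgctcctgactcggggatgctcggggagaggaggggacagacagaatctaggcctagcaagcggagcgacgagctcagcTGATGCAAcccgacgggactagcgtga

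Aars, which encodes the alanyl enzyme, held the ATF4 core once on each side of its start. Kars, the lysyl gene, and Wars2, the mitochondrial tryptophanyl gene, were the genes whose day 7 libraries did not overlap the controls, as given below, and their windows (chr8:112011325-112011504, minus strand, and chr3:99140940-99141119, plus strand) are shown for comparison. The RefSeq start of Kars matches no GENCODE transcript start, and its window lies wholly before the GENCODE gene. Neither held either motif, which says only that these letters were not in the windows.
Kars: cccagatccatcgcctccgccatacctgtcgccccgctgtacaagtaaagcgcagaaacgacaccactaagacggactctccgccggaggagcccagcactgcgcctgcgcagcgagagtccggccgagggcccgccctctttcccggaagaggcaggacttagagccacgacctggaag
Wars2: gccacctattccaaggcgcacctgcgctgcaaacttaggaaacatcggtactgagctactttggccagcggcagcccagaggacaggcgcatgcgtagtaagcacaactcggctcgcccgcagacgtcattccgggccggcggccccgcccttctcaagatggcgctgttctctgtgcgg

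Libraries held 14493764 to 27340070 reads in genes, and 47.1% to 69.8% of a library's reads fell outside gene models. Each library is taken as 1 mouse. The 8 CD4 T cell markers summed to 2736 to 5468 in controls, 4041 to 6004 at day 7 and 3033 to 4523 at day 14, in CPM (reads per 1e+06 reads in genes, scaled by TMM). The 2736 was that of control 2, and the other controls held 4302 to 5468. Control libraries 1 and 2 stood apart. The 12 markers of dividing cells summed to 1888 and 4312 CPM there, against 312 to 529 in the other 3 controls, 206 to 732 at day 7 and 412 to 2086 at day 14. The 10 neutrophil markers summed to 825 and 2450 CPM in the same pair, against 18.6 to 48.4 in the other controls, 1.2 to 37.4 at day 7, and 17.1 to 1560 at day 14, where library 4 held the 1560. The macrophage and monocyte markers (264 and 723 CPM against 21.0 to 58.5), the plasma cell markers (663 and 598 against 119 to 364) and the erythroid markers (161 and 426 against 14.8 to 30.7) were also higher in that pair than in the other controls. The 10 B cell markers lay between 15.1 and 82.0 CPM in every library. Among these lists, markers at 0 in all 16 libraries were the globin genes Hba-a1, Hba-a2, Hbb-bs and Hbb-bt, which are 4 of the 8 erythroid markers. Day 7 libraries 6 and 7 stood apart from the other 5 in their group, with 516 and 732 CPM against 206 to 376 for dividing cells, 209 and 233 against 96.9 to 116 for plasma cells, and 39.4 and 78.2 against 2.05 to 4.59 for erythroid cells. Both comparisons with control share the 5 control libraries, so class results and those of many genes are given with and without controls 1 and 2. Fewer cells of a type and less RNA per cell cannot be told apart in bulk samples.

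Levels between genes are compared as reads per kilobase of the longest GENCODE transcript, on the CPM scale (RPKM). In controls the highest cytosolic levels were those of Dars, the aspartyl gene, at 66.8 ± 9.91 RPKM (SD, n = 5) and Qars, the glutaminyl gene, at 53.1 ± 6.77. Sars (seryl), Kars and Nars (asparaginyl) followed at 52.0, 51.6 and 51.6 RPKM, closer to Qars than the spread between libraries. The lowest were Farsa, which encodes a phenylalanyl subunit, at 10.4 ± 1.87 and Yars, the tyrosyl gene, at 10.5 ± 2.22 RPKM. Among mitochondrial genes Tars2 (threonyl) was at 28.6 ± 2.28 and Iars2 (isoleucyl) at 23.1 ± 8.39 RPKM, with Lars2 (leucyl) at 22.4 and Rars2 (arginyl) at 20.2, and every other mitochondrial gene was at or below 8.08. Mars2 (methionyl) at 1.02 ± 0.167 and Pars2 at 0.914 ± 0.659 RPKM were the lowest and did not differ beyond their spread. Over the 5 controls Pars2 read 2.02, 0.723, 1.71, 5.86 and 3.61 CPM and Mars2 9.4 to 14.5, so the spread of Pars2 between libraries was wide. Farsa read 31.2, 45.6, 31, 31.4 and 34.5 CPM and Yars 30.4, 41.2, 27.7, 23.9 and 28.9, both highest in control 2. Qars read 150, 198, 161, 158 and 146 CPM, also highest in control 2, whereas Tars2, at 96.6, 105, 117, 103 and 96.6, was not. The order depends on the length used. Per kilobase of all annotated exons Dars was at 33.3 RPKM, below 2 other cytosolic genes, while Tars2 at 14.9 remained the highest mitochondrial gene. By that length Sars ranked 1, Qars 9, Farsa 18 and Yars 20 among the 20 cytosolic genes.

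**Figure D1:**
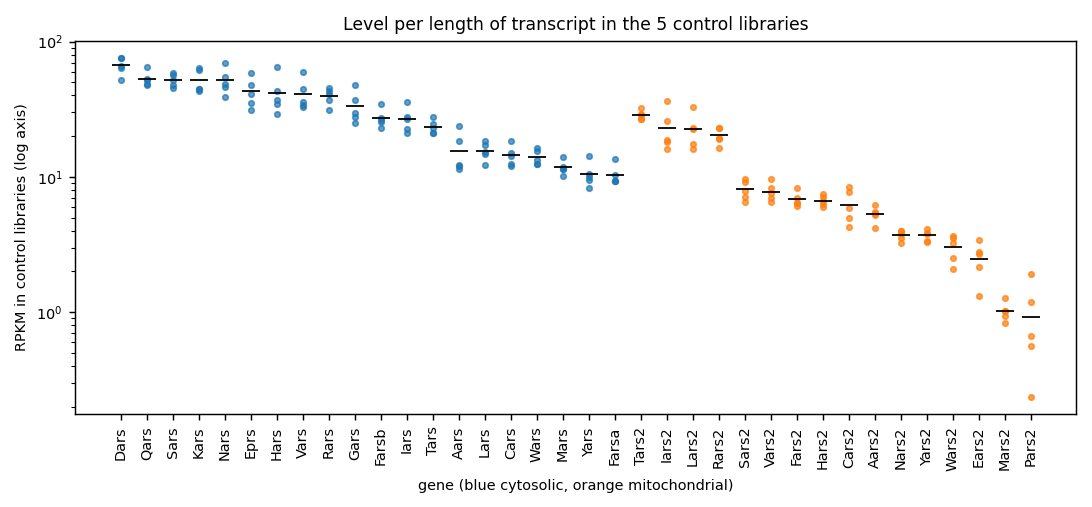
Level per length (RPKM, log axis) of the synthetase genes in the 5 control libraries; points are libraries and black dashes their means, blue for cytosolic and orange for mitochondrial genes. Cytosolic means run from 10.4 (Farsa) to 66.8 (Dars), and 4 mitochondrial genes (Tars2, Iars2, Lars2, Rars2) stand above 20 while the other 12 shown lie at or below 8.08.

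Most cytosolic synthetase genes had lower values in the tumour-bearing mice than in controls, by small amounts, and most mitochondrial ones did not. At day 7, 19 of 20 cytosolic genes had a negative log2 change (median −0.23), against 7 of 17 mitochondrial genes (median 0.06) and 43.8% of all 18430 genes tested (median 0.07). At day 14, 16 of 20 cytosolic genes were below control (median −0.22), against 5 of 17 mitochondrial genes (median 0.06) and 42.3% of all genes (median 0.12). No synthetase gene passed edgeR's test at an adjusted p of 0.05 in either comparison. Over all genes, 0.0109% were called higher and 0.0% lower at day 7, and 1.33% higher and 1.8% lower at day 14 (3.13% in either direction). At an unadjusted p under 0.05, 9 cytosolic genes were lower and 3 mitochondrial genes higher at day 7, where 12.7% of all genes were lower and 8.43% higher. At day 14 the counts were 8 cytosolic genes lower and 1 mitochondrial gene higher, where the shares of all genes were 11.8% and 10.5%. DESeq2 called 5 synthetase genes at day 7 and 0 at day 14, where it called 1575 and 1564 of 22927 genes with reads.

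**Figure D2:**
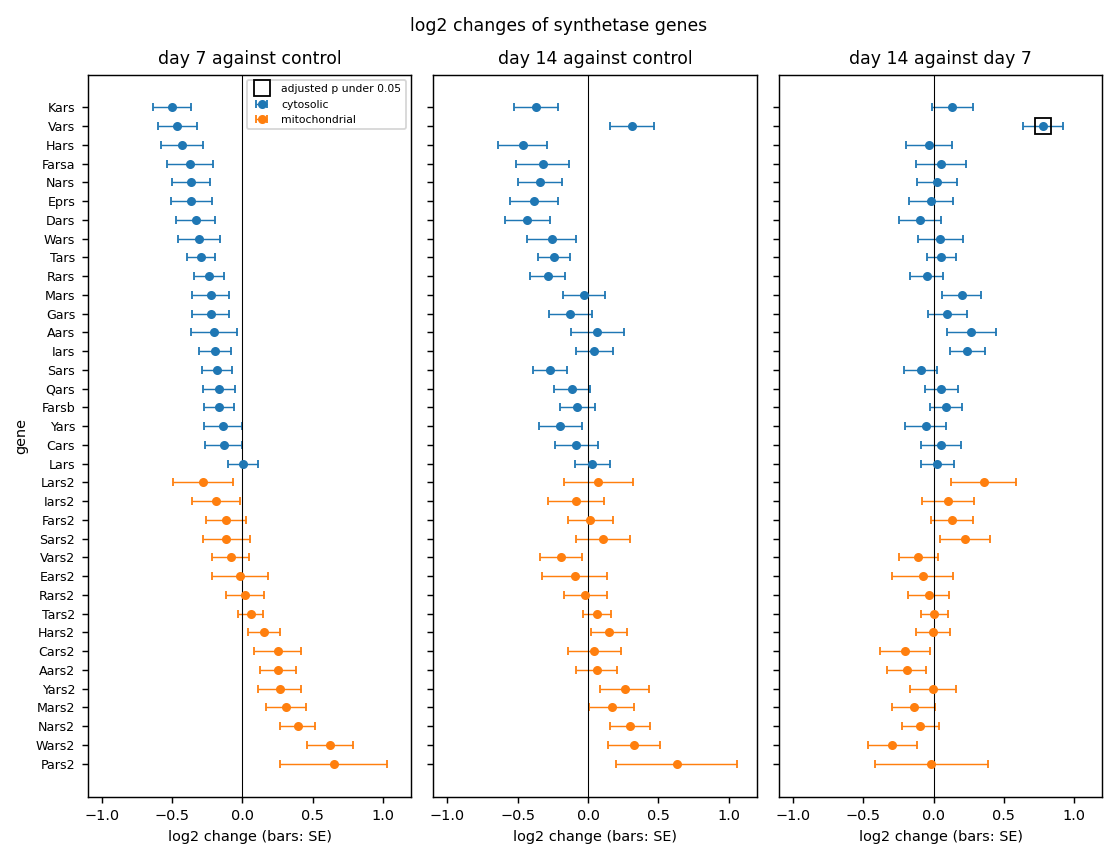
log2 change (x axis) with standard error bars of 36 synthetase genes (y axis) in the 3 comparisons, blue for cytosolic and orange for mitochondrial genes, ordered by the day 7 change. The 20 cytosolic points lie left of 0 for 19 of 20 genes at day 7 and 16 of 20 at day 14, and the square marks Vars at 0.78, the single gene with an adjusted p under 0.05.

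The class values against control were also taken without the pair of control libraries that stood apart. The mean log2(CPM + 1) over the 20 cytosolic genes was 6.47 and 6.78 in controls 1 and 2, and 6.30, 6.30 and 6.23 in the other controls. Day 7 libraries lay between 6.02 and 6.26, and day 14 libraries at 6.00, 6.47, 6.17 and 6.34, so both groups overlapped the controls. Control 2 was the highest control for 16 of 20 cytosolic genes, and controls 1 and 2 were both above the other 3 for 12 of 20. Among mitochondrial genes the pair was highest for 3 of 17 and lowest for 3 of 17. Without this pair the cytosolic median was −0.13 at day 7, with 15 of 20 genes negative, and −0.09 at day 14, with 12 of 20 negative. The mitochondrial medians were then 0.16 and 0.09, each with 4 of 17 negative, and the medians of all 19144 genes tested were 0.12 and 0.31, with 37.6% and 36.5% negative. Each cytosolic median was thus below that of the mitochondrial genes and that of all genes. The mitochondrial day 14 median, 0.09, was also below that of all genes, 0.31. At an unadjusted edgeR p under 0.05, 0 cytosolic genes were lower at day 7 and 0 at day 14 without the pair, against 9 and 8 with all controls. At the same p, 2 mitochondrial genes were higher at day 7 and 2 cytosolic genes at day 14. The shares of all genes at that p without the pair are not given here, so these counts stand without a background. The part of dividing cells or neutrophils in the level of these genes was not tested.

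The mitochondrial mean was 4.34 to 4.59 in controls, 4.49 to 4.66 at day 7 and 4.48 to 4.69 at day 14. The gap between the class means was 1.66 to 2.42 in controls, 1.47 to 1.67 at day 7 and 1.43 to 1.84 at day 14. All 7 day 7 libraries were at or under 1.67, and control 5, at 1.66, was the only control within their range. Within day 14, library 2 was the highest of 4 for 13 of 20 cytosolic genes and library 1 the lowest for 15 of 20. Library 1 also had the largest share of reads outside gene models, 69.8%, and library 2 the smallest of its group, 54.4%. Within the cytosolic class, the 8 genes of the multisynthetase complex and the 12 outside it were alike in sign. At day 7 the medians were −0.23 (7 of 8 negative) and −0.26 (12 of 12), and at day 14 −0.20 (6 of 8) and −0.22 (10 of 12).

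**Figure D3:**
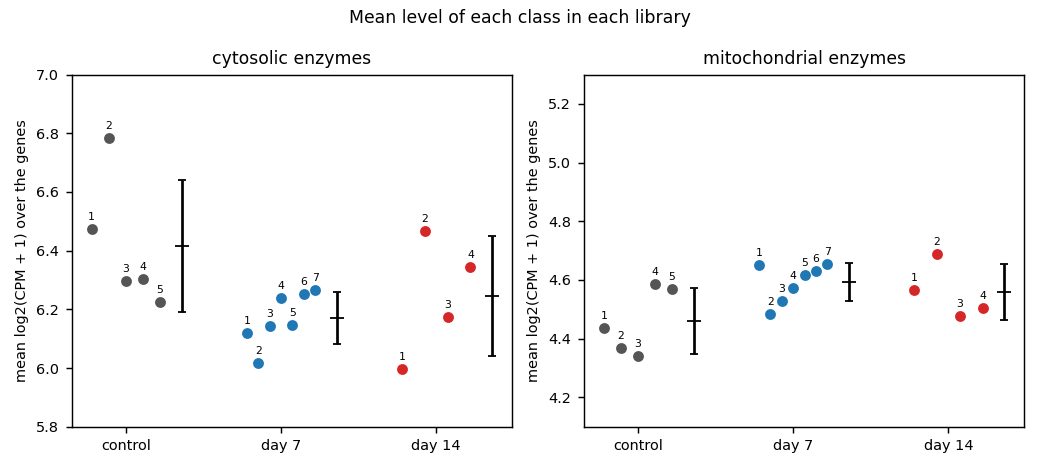
Mean log2(CPM + 1) over the 20 cytosolic genes (left) and the 17 mitochondrial genes (right) in each library; numbers are library numbers and bars are mean and SD. Controls 1 and 2 (6.47 and 6.78) are the highest controls on the left, and the mitochondrial values of the 3 groups overlap between 4.34 and 4.69.

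Kars had the lowest p among the cytosolic genes at day 7. It read 149, 155, 104, 108 and 107 CPM in controls 1 to 5, and from 73.7 to 102 at day 7 (median 86.5), so that every day 7 library lay below every control. It was the only synthetase gene lower in this way, as were 0.982% of all genes. Its log2 change was −0.50 ± 0.14 (SE), with an edgeR adjusted p of 0.0777. Without controls 1 and 2 it was −0.27 ± 0.14 with an edgeR adjusted p of 0.406. The remaining controls read 104 to 108 CPM, and the highest day 7 values, 101 and 102, were those of libraries 6 and 7. Day 14 libraries read 72.9, 116, 84.7 and 112 CPM and overlapped the controls, with a log2 change of −0.37 ± 0.16 and an adjusted p of 0.176. Kars lies at chr8:111993443-112011323 (GRCm38, minus strand), and its start is 75 bases from that of Terf2ip, which runs the other way.

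Hars, the histidyl gene, read 85.1, 128, 73.3, 68.7 and 58.0 CPM in controls, 57.5 to 66.3 at day 7 (median 60.6), and 52.6, 76.7, 55.8 and 54.8 at day 14. Its groups overlapped, with control 2 the highest of all 16 libraries. Its log2 changes were −0.43 ± 0.15 at day 7 (edgeR adjusted p = 0.107) and −0.46 ± 0.17 at day 14 (adjusted p = 0.132). Without controls 1 and 2 they were −0.12 and −0.15.

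Dars read 165, 165, 144, 140 and 113 CPM in controls, 105 to 144 at day 7 (median 113), and 67.3, 135, 110 and 119 at day 14. The lowest control lay within both other groups. The log2 changes were −0.33 ± 0.14 and −0.43 ± 0.16 at days 7 and 14, with edgeR adjusted p values of 0.174 and 0.131. Without controls 1 and 2 they were −0.20 and −0.29 (edgeR adjusted p = 0.615 and 0.268). Eprs read 270, 332, 231, 199 and 176 CPM in controls, 178 to 196 at day 7 (median 188), and 124, 234, 175 and 207 at day 14. Day 7 libraries of Eprs were close together and lay between the lowest 2 controls. Its log2 changes were −0.36 ± 0.15 (edgeR adjusted p = 0.157) and −0.38 ± 0.17 (adjusted p = 0.189), and −0.11 and −0.13 without controls 1 and 2.

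Tars, the threonyl gene, had −0.30 ± 0.10 at day 7 (edgeR adjusted p = 0.0999), Nars −0.37 ± 0.13 (adjusted p = 0.122) and Farsa −0.37 ± 0.16 (adjusted p = 0.193). Without controls 1 and 2 these 3 changes were −0.19, −0.21 and −0.27 (edgeR adjusted p from 0.489 to 0.537). Wars, the cytosolic tryptophanyl gene known to respond to interferon gamma, read 38.6, 47.1, 36, 36.1 and 44.6 CPM in controls and 29.3, 38.1, 28.5 and 39.5 at day 14. At day 7 it read 24.6 to 30.1 in libraries 1 to 5, and 42.9 and 44.2 in libraries 6 and 7, so only the first 5 lay below all controls, and libraries 6 and 7 are those that stood apart in markers of other cells. Its log2 changes were −0.31 ± 0.15 and −0.26 ± 0.17, with edgeR adjusted p values of 0.251 and 0.373. Without controls 1 and 2 they were −0.25 and −0.20 (edgeR adjusted p = 0.562 and 0.487).

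Some genes had the other sign without controls 1 and 2. Aars read 107 and 137 CPM in that pair, 66.2 to 70.2 in the other controls, 66.2 to 104 at day 7 (median 75.0), and 82.6, 97.1, 102 and 94.8 at day 14. All 4 day 14 libraries lay between the pair and the other controls. The day 7 log2 change was −0.20 (edgeR adjusted p = 0.520), and 0.19 (adjusted p = 0.530) without the pair. At day 14 it was 0.06 (adjusted p = 0.844), and 0.45 (adjusted p = 0.0588) without the pair. Gars read 87.7, 114, 70.6, 66.5 and 59.9 CPM in controls, 61.3 to 75.7 at day 7 (median 66.7), and 64.6, 82.6, 65.8 and 79.3 at day 14. Its log2 changes were −0.22 and −0.13, and 0.06 and 0.15 without the pair (edgeR adjusted p from 0.345 to 0.847). Lars, the leucyl gene whose product is also known as a leucine sensor upstream of mTORC1, had 0.00 ± 0.11 at day 7, the only cytosolic change that was not negative. It read 59, 68.6, 48.9, 60.6 and 73.1 CPM in controls and 56.5 to 70 at day 7 (median 62), inside the control range.

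Mitochondrial genes with the lowest p values at day 7 were higher, not lower. Wars2 read 11.1, 9.17, 14.4, 16 and 15.7 CPM in controls, 18.9 to 22.7 at day 7 (median 19.8), and 13.3, 22.2, 17.2 and 13.9 at day 14. Every day 7 library lay above every control, as it did for 0.988% of all genes, and day 14 libraries overlapped both groups. The day 7 log2 change was 0.62 ± 0.16 with an edgeR adjusted p of 0.0777, and 0.41 ± 0.16 (adjusted p = 0.337) without controls 1 and 2, which were the lowest 2 controls. Day 14 had 0.33 ± 0.19 (adjusted p = 0.296).

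Nars2, the mitochondrial asparaginyl gene, read 12.2, 14.4, 13.5, 15.1 and 15 CPM in controls, 14.9 to 21.7 at day 7 (median 17.8), and 17.1, 16.8, 16.3 and 18.9 at day 14. All 4 day 14 libraries lay above all controls, as they did for 5.24% of all genes (2.85% were below all controls in the same way), and 1 day 7 library lay within the control range. The log2 changes were 0.39 ± 0.12 (edgeR adjusted p = 0.0893) and 0.30 ± 0.14 (adjusted p = 0.216), and 0.34 and 0.25 without controls 1 and 2. An antisense gene, C230038L03Rik, shares 284 bases of exon with Nars2, and the strand setting of the counting is not given in the sources used here. Exons of 6 cytosolic and 8 mitochondrial genes overlap another gene, so their values are uncertain too. Among them are Iars2 (2148 bases, with Rab3gap2 and another gene on the opposite strand), Vars2 (465 bases, with Gm20483) and Hars (195 bases, with Hars2). Aars shares 1403 bases with Gm24103 on the opposite strand and Exosc6 on the same strand. A strand setting would not separate Aars from Exosc6. Mars2 had 0.31 ± 0.14 at day 7 (adjusted p = 0.220). Pars2 had the largest day 7 value, 0.65 ± 0.38 (adjusted p = 0.352), from 0.723 to 5.86 CPM in controls and 2.81 to 5.93 at day 7.

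Iars2 and Lars2 had the lowest p values among mitochondrial genes that were lower at day 7. Iars2 read 143, 200, 87.4, 103 and 99.9 CPM in controls, 93.4 to 122 at day 7 (median 113), and 89.3, 140, 102 and 146 at day 14. As for Aars, controls 1 and 2 were the highest controls, and the day 7 log2 change of −0.19 (edgeR adjusted p = 0.579) was 0.20 (adjusted p = 0.545) without them. Lars2 read 88.3, 67.6, 62.8, 89.4 and 129 CPM in controls, 59.7 to 85.1 at day 7 (median 72.1), and 161, 65.4, 83.4 and 58.1 at day 14. Day 14 library 1 was the highest of all 16 libraries and the other 3 lay within or below the control range. The day 7 change was −0.28 ± 0.21 (edgeR adjusted p = 0.493). Against day 7, day 14 had 0.36 ± 0.23 (adjusted p = 0.503), and −0.07 without library 1. Vars2, the mitochondrial valyl gene, was at 34.5 ± 5.56, 32.5 ± 4.96 and 30.2 ± 3.81 CPM in control, day 7 and day 14 (SD, n = 5, 7 and 4), and Tars2 at 104 ± 8.23, 108 ± 7.51 and 108 ± 14.9.

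**Figure D4:**
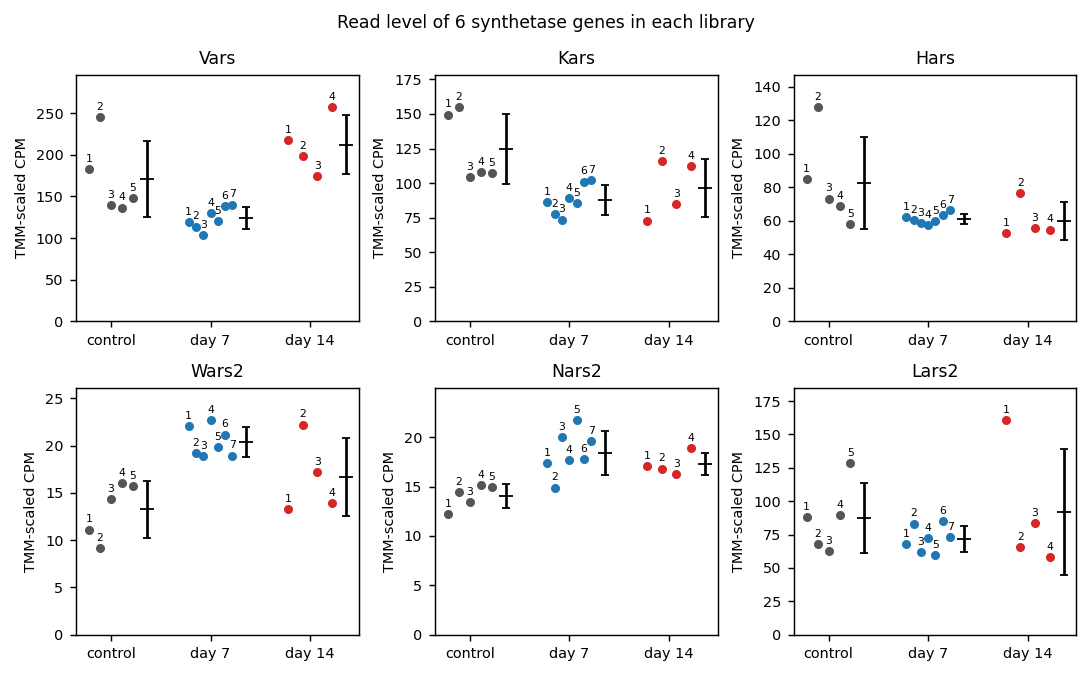
CPM (y axis, scaled by TMM) of 6 synthetase genes in every library, with library numbers and, beside each group, mean and SD. Vars at day 14 (174 to 258) lies above all day 7 libraries (104 to 140), Kars at day 7 lies below and Wars2 above every control, and day 14 library 1 carries the high Lars2 value of 161.

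Between day 7 and day 14 the valyl gene Vars rose, and it was the only synthetase gene to pass the test. Over all genes, 0.412% were called higher and 0.553% lower in this comparison (0.966% in either direction). It was also the only synthetase gene with an unadjusted p under 0.05, which 6.54% of all genes had with a higher and 8.27% with a lower value. Vars read 104 to 140 CPM at day 7 (median 120) and 218, 198, 174 and 258 at day 14, so every day 14 library lay above every day 7 library, as it did for 1.77% of all genes (2.78% lay below in the same way). The controls read 183, 245, 140, 137 and 148. The means were 124 ± 13.1 at day 7 (SD, n = 7) and 212 ± 35.4 at day 14 (n = 4), a 1.71-fold difference, with a log2 change of 0.78 ± 0.15 and an edgeR adjusted p of 0.0177. By p it ranked 40 of 18430. The 19 other cytosolic genes had log2 changes from −0.10 (Dars) to 0.27 (Aars), with Iars, the isoleucyl gene, at 0.24 ± 0.12 (adjusted p = 0.380). Mitochondrial genes ran from −0.29 (Wars2) to 0.36 (Lars2), with Sars2 (seryl) at 0.22 and Aars2 (alanyl) at −0.19. Iars read 92.2 to 114 CPM at day 7 (median 105) and 104, 135, 120 and 132 at day 14, and Sars 137 to 181 (median 172) and 125, 194, 151 and 146. Sars2 read 10.3 to 19.1 CPM and Aars2 16.3 to 23.4 over both times. The groups of these 4 genes overlapped. The difference between the change of Vars and those of the other genes was not tested.

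The Vars call held in 23 of 25 alternative settings, with log2 changes of 0.66 to 0.94. It was lost without day 14 library 4 (0.66, edgeR adjusted p = 0.097), the library with the highest Vars value and with 1560 CPM of neutrophil markers. It was also lost with the replicate number as a block (0.83, edgeR adjusted p = 0.0577). The labels do not say whether equal numbers link libraries of different groups. The 12 dividing cell markers all had higher values at day 14 than at day 7 (median log2 change 1.51, all 12 with an unadjusted p under 0.05 and none called). The 8 CD4 T cell markers all had lower values (median −0.56, 6 with an unadjusted p under 0.05 and none called), and 2 of 10 neutrophil and 1 of 6 plasma cell markers were called higher. The part of these cells in the rise of Vars was not tested.

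Against control, Vars had −0.46 ± 0.14 at day 7 (edgeR adjusted p = 0.0824) and 0.31 ± 0.16 at day 14 (adjusted p = 0.245). Controls 3, 4 and 5 lay at 137 to 148 CPM, below all 4 day 14 libraries, and controls 1 and 2, at 183 and 245, within the day 14 range. Without controls 1 and 2 the day 14 change was 0.58 ± 0.13 with an edgeR adjusted p of 0.0221, which passes the threshold. The day 7 change was then −0.19 (adjusted p = 0.498). Day 14 library 4, with 2086 CPM of dividing cell and 1560 of neutrophil markers, was kept and had the highest Vars value, 258 CPM. No setting left out that library together with controls 1 and 2. Vars lies at chr17:35000987-35016322 (GRCm38, plus strand), and its exons overlap no other annotated gene. Vwa7 begins 256 bases beyond its end on the same strand, at 1.70 CPM on average at day 7 and 2.78 at day 14. None of the 7 tested genes within 40000 bases passed the test between day 14 and day 7. Clic1, the most read of them, had 0.01 (adjusted p = 0.964), and Lsm2, which encodes an RNA-binding protein of the splicing machinery, 0.17 (adjusted p = 0.739).

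Partner genes of the synthetases showed few calls. The 3 scaffold genes of the multisynthetase complex (Aimp1, Aimp2 and Eef1e1) were all below control at day 7 (median log2 change −0.15) and day 14 (−0.26), and none passed the test. Aimp1, the most read, was at 51.8 ± 5.32 CPM in controls, 46.5 ± 2.81 at day 7 and 43.3 ± 3.63 at day 14, with edgeR adjusted p values of 0.328 and 0.144. Of the 4 genes measured for making glutaminyl tRNA and formylmethionyl tRNA in mitochondria none passed. Their medians were 0.11 at day 7 and 0.11 at day 14, each with 3 of 4 positive. Gatc, a subunit of the amidotransferase, was the 1 lower gene at day 7, at 39.7 ± 8.29 CPM in controls and 27.3 ± 5.25 at day 7 (edgeR adjusted p = 0.0954). None of 7 genes for proofreading, selenocysteine loading or synthetase-like proteins passed, with Dtd1, a D-aminoacyl tRNA deacylase, at −0.21 and −0.37. None of 10 mitochondrial translation factors passed either, and their day 7 median was 0.05, with Tufm, the elongation factor, at −0.23 (adjusted p = 0.460).

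Of 20 genes induced by ATF4 or by the integrated stress response, the pathway that answers amino acid shortage, none passed against control. Their medians were −0.26 at day 7 (13 negative) and −0.17 at day 14 (11 negative). Atf4 itself was at 189 ± 25.0 CPM in controls and 256 ± 61.1 at day 7 (log2 change 0.44, edgeR adjusted p = 0.111). Day 7 libraries 1 to 5 read 258 to 327 CPM, above all controls (160 to 226), and libraries 6 and 7, which stood apart in markers of other cells, read 174 and 171. Asns, the asparagine synthetase gene and a well-known ATF4 target, was at 17.4 ± 21.3 and 2.75 ± 3.07 (−2.64 ± 0.79, adjusted p = 0.0828). Asns read 19.8 and 53.7 CPM in controls 1 and 2, and 2.28 to 6.31 in the other controls. The 5 genes shown above with the ATF4 core had day 7 changes of −0.20 (Aars), −0.22 (Gars), −0.20 (Iars), −0.30 (Tars) and −0.14 (Yars). These lay within the range of the other cytosolic genes. Only 13 of the 20 cytosolic genes had a matched promoter, so this range cannot compare genes with and without the core. Of the 4 eIF2 alpha kinases, the sensors of that pathway, none passed. Their medians were −0.11 at day 7 and −0.28 at day 14, each with 3 of 4 negative. Eif2ak4, the sensor of uncharged tRNA, was the exception, with 0.11 at day 7 and 0.19 at day 14.

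Between day 7 and day 14, 15 of the 20 stress response genes had higher and 5 lower values (median 0.23), where 40.6% of all genes were lower (median 0.12), and 1 of the 5 passed the test. Ppp1r15a, which encodes the subunit that directs dephosphorylation of eIF2 alpha, fell from 704 ± 225 to 299 ± 78.2 CPM (log2 change −1.24 ± 0.26, edgeR adjusted p = 0.0317). Day 7 libraries 1 to 5 read 740 to 953 CPM, libraries 6 and 7 read 376 and 406, and day 14 libraries 192 to 367. The call was lost in 6 of 25 alternatives, which left out day 7 library 1, 4 or 5 or day 14 library 1, 3 or 4, with adjusted p values up to 0.141.

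None of 14 amino acid transporter genes passed in any comparison, and their medians against control were 0.05 and −0.03. Slc3a2, the heavy chain shared by several of these transporters, was at 197 ± 76.0 CPM in controls, 188 ± 47.5 at day 7 and 131 ± 18.3 at day 14 (edgeR adjusted p = 0.175 at day 14 against control). None of 20 tRNA maturation genes passed, with Ssb, the La protein that binds new RNA polymerase III transcripts, at −0.27 and −0.40 (adjusted p = 0.301 and 0.174). Of 20 genes for RNA polymerase III and its factors, Gtf3c6, a subunit of the TFIIIC factor that recognises tRNA genes, fell from 42.3 ± 8.70 in controls to 26.0 ± 5.18 CPM at day 14 (−0.70 ± 0.17, edgeR adjusted p = 0.0366). Controls read 47.7, 54.1, 37.6, 40.3 and 31.9 CPM and day 14 libraries 21.5, 33.2, 23.1 and 26.2, so day 14 library 2 overlapped control 5. The call was lost in 10 of 25 alternatives, among them without controls 1 and 2 and without control 1, 3 or 4 or day 14 library 1, 3 or 4, with log2 changes of −0.85 to −0.50 and adjusted p values up to 0.133 over the alternatives.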

How the data were processed

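Magnetic negative selection enriched the CD4 T cells, a Macherey-Nagel kit gave the RNA, and 100 ng of it entered a NuGEN mouse library kit, all per the labels' protocols. Build mm10 and the tools HTSeq 0.6.1, cutadapt 1.8.1 and bcl2fastq 2.20.0.422 stand in the submitters' processing notes. The aligner, annotation and strand setting are not given in the sources used here. The authors deposited raw read counts per gene, and 5 lines naming no gene were left out. They held mainly reads outside gene models, 47.1% to 69.8% of a library.

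Counts were tested with edgeR 4.0.16 in R 4.3.3 (TMM scaling, filterByExpr by group, quasi-likelihood fit over all 16 libraries, group as the only term). P values were adjusted by Benjamini-Hochberg over all 18430 genes tested, with a threshold of 0.05, and the standard error of a log2 change is its size over the root of the F statistic. The test was checked on simulated data. CPM are TMM-scaled, class means used a pseudocount of 1 CPM, and lengths and positions came from GENCODE's annotation of GRCm38, matched by symbol. Whether a library is 1 mouse rests on the series' description. Where libraries of a group are technical repeats, p values would measure technical spread alone.

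The 25 alternatives per comparison included RLE and library-total scaling, no filter on low counts, limma-voom (limma 3.58.1) and DESeq2 1.42.0. The rest were the 2 compared groups alone, a replicate block, no controls 1 and 2, a Y-linked covariate, and each library left out in turn. That covariate was the mean log2(CPM + 1) of the Y-linked genes Ddx3y, Eif2s3y, Kdm5d and Uty in each library. Genes with per-library values were those called, per class and comparison the 2 with the lowest p in each direction, per class the 2 highest and 2 lowest by level, and a set panel. Other genes were named after their values were seen. The genes and lists were chosen with earlier results of these data known. Figures were made with Python 3.11.15 and Matplotlib 3.10.9. Values of 1 mitochondrial gene are not reported here, although it stays in the class counts and means.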

Additional observations from a re-analysis of the deposited data

Results flagged for a closer look

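Between day 7 and day 14, Vars had a log2 change of 0.78, and its edgeR test passed the threshold, while its values against control were −0.46 at day 7 and 0.31 at day 14, on both sides of 0.

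Of 108 groups of CPM values, 36 genes in each of 3 groups, 6 (5.56%) held 1 library far from the others by Dixon's test, where chance alone gives about 1 in 20. Dars in day 7 library 4 read 144 CPM against 118 in the next library, and Yars in the same library read 33.9 against 28.4. In control 2, Farsa read 45.6 against 34.5. At day 14, Farsa in library 3 read 18.4 CPM against 29.95 in the next lowest, Hars in library 2 read 76.7 against 55.8, and Yars in library 4 read 32.8 against 25.2.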

How the results depend on the processing

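For day 7 against control, edgeR called no synthetase gene. DESeq2 called 5 (Kars, Tars and Vars lower, Nars2 and Wars2 higher), where it called 1575 of 22927 genes with reads. The Y-linked covariate gave 3 (Kars and Vars lower, Wars2 higher). Leaving out 1 library gave 0 to 3, the 3 being Hars, Kars and Wars2 without control 5. For day 14 against control, the count was 1 (Vars) without controls 1 and 2, and 0 to 4 with 1 library left out: Vars without control 2, and Hars, Rars, Sars and Tars, all lower, without day 14 library 2. For day 14 against day 7, leaving out 1 library gave 0 to 1, with 0 without day 14 library 4. The cause of these changes was not tested.

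The replicate block gave 0 calls for day 14 against day 7, and a log2 change of −0.025 for Lars at day 7. Whether equal numbers link libraries of different groups is not stated in the labels. Over 13 same-numbered pairs, the correlation of deviations from group means was −0.34 to 0.30, and 3 were over 0.1. Without different-numbered pairs beside them, these values cannot decide the question.

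Of 925 values of single genes under alternatives, 877 kept direction and side of the threshold, 12 newly passed it, 2 no longer did and 34 changed sign. None of those 34 passed the test under the alternative, and none was larger than 0.32. Library totals moved the median of all genes at day 14 from 0.12 to 0.32 against control and to 0.29 against day 7. With them the cytosolic medians were −0.03 (10 of 20 negative) and 0.20, and the mitochondrial ones 0.27 and 0.12. Changes of sign with library totals were, for day 14 against control, Gars (0.059), Iars2 (0.094) and Vars2 (0.016), and against day 7 Dars (0.048), Eprs (0.12) and Sars (0.050). Eprs was also 0.0036 with RLE and 0.0035 with DESeq2. Without controls 1 and 2 they were Aars (0.19), Gars (0.056) and Iars2 (0.20) at day 7, and Gars (0.15), Iars2 (0.30) and Lars2 (−0.029) at day 14. Iars2 was 0.019 at day 14 with the Y-linked covariate. With 1 library left out, values at day 7 ran from −0.24 to 6.3e-06 for Aars, −0.20 to 0.037 for Iars2 and −0.028 to 0.14 for Lars. At day 14 they ran from −0.19 to 0.038 for Gars, −0.20 to 0.14 for Iars2 and −0.32 to 0.33 for Lars2. Against day 7 they ran from −0.22 to 0.051 for Dars, −0.16 to 0.10 for Eprs, −0.073 to 0.52 for Lars2 and −0.042 to 0.14 for Wars.

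Depth limits Pars2 most, with 16 reads in control 2. Calls over all genes ranged from 0 to 1575 at day 7, 4 to 1564 at day 14 and 25 to 1000 between them. DESeq2 gave the 1575 and 1564, and the Y-linked covariate the 1000, where the main edgeR test called 178.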
